A study of Mus musculus with 38 samples.

Results

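Tubulins are the protein that paclitaxel binds, and stathmin is a small protein that holds free tubulin out of the polymer. The 10 genes described here were the alpha-tubulins Tuba1a, Tuba1b and Tuba1c, the beta-tubulins Tubb2a, Tubb2b, Tubb3, Tubb4b, Tubb5 and Tubb6, and the stathmin gene Stmn1. They were chosen by symbol, through the Ensembl identifiers of the 2 deposited count tables, and made up 10 of 55487 genes. All 10 passed the filter on low counts, at least 1 CPM (a count scaled to library size) in at least 25% of libraries, and were among 16241 genes tested in the tumors and 13742 tested in the cell lines.

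The series profiled bulk RNA from omental tumors of a pair of transplantable mouse models of high-grade serous ovarian cancer, 60577 and HGS2, with 2 libraries of each cultured cell line. Tumor cells were injected intraperitoneally into wild-type female mice of 8 to 9 weeks, FVB mice for 60577 and C57BL/6J mice for HGS2. Carboplatin at 20 mg/kg together with paclitaxel at 10 mg/kg was given once a week for 3 doses, starting 21 days after injection for 60577 and 49 days for HGS2, and controls received the vehicle. Collection was at TP1 (1 day after the final dose), TP2 (7 days) or TP3 (21 days).

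For 60577 there were 3 control and 3 treated tumors at TP1, 3 control and 4 treated at TP2, and 4 treated at TP3. For HGS2 there were 3 and 3 at TP1, 4 control and 3 treated at TP2, and 4 treated at TP3, of which 3 were used. Neither model had TP3 controls, so TP3 tumors were set against TP2 controls of their own model. Every mouse that was treated received both drugs, so an effect of paclitaxel cannot be told apart from that of carboplatin. The models also differed in mouse strain and in the day treatment began, and each was a single cell line. The engineered alleles of the lines are not given in the sources used here.

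Microtubules are hollow polymers of alpha- and beta-tubulin dimers that build the mitotic spindle and carry transport in cells that do not divide. Paclitaxel binds beta-tubulin inside the polymer and holds the dimers in place, so that spindles cannot work and dividing cells stall. Stathmin acts the other way: it binds free dimers and promotes the disassembly of microtubules, and it is abundant in dividing cells. Cells also tune their tubulin mRNA. When free dimers are in excess, a ribosome-bound factor, Ttc5, reads the first residues of the tubulin chain as it emerges and, through Scaper and the Ccr4-Not complex, has the mRNA degraded.

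The first 30 coding bases are shown because that control acts on the chain they encode. They were read from GENCODE M21 transcripts (GRCm38), with the first 12 bases in capitals.
Tuba1a: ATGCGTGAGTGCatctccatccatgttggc
Tuba1b: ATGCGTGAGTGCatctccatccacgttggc
Tuba1c: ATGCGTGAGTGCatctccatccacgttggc
Tubb2a: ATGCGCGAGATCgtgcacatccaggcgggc
Tubb2b: ATGCGAGAGATCgtgcacattcaggcgggc
Tubb3: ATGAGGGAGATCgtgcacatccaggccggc
Tubb4b: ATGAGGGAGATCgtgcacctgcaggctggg
Tubb5: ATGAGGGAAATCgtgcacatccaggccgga
Stmn1: ATGGCATCTTCTgatattcaggtgaaagag
The 3 alpha-tubulins shared the same 12 bases, and so did Tubb3 and Tubb4b. Tubb2a, Tubb2b and Tubb5 each had their own bases there, but the differences were synonymous. All beta-tubulins shown encode the same first residues, Met-Arg-Glu-Ile. Stmn1 belongs to another family.

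The last 60 coding bases before the stop codon are shown for Tubb2a and Tubb2b, because few bases there tell a read of one gene from a read of the other. Capitals mark the 3 of 60 bases that differ between them.
Tubb2a: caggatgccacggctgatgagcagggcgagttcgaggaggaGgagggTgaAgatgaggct
Tubb2b: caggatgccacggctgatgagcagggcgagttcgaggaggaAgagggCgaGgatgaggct
Over the whole coding sequence Tuba1a and Tuba1b were 98.3% identical, Tuba1a and Tuba1c 97.1%, and Tubb2a and Tubb2b 96.5%, while Tubb3 and Tubb5 were 81.4% identical. Of all 150-base windows of its longest transcript, 57.9% for Tuba1b, 54.7% for Tuba1a, 46.7% for Tuba1c, 27.9% for Tubb2a and 20.1% for Tubb2b also occurred in transcripts of another gene. The counts of these 5 genes are therefore uncertain as to which copy a read came from, and their sums are given where the call depends on it. The share was 16.8% for Tubb4b and 16.6% for Stmn1, each with a copy elsewhere in the genome, and 0% for Tubb3, Tubb5 and Tubb6.

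The alpha-tubulin genes lie side by side in GRCm38, at chr15:98931425-98934565 for Tuba1b and chr15:98949837-98953703 for Tuba1a, both on the minus strand, and at chr15:99029891-99038110 for Tuba1c on the plus strand. Tubb2a (chr13:34074274-34078007) and Tubb2b (chr13:34126748-34130466) are also neighbors, both on the minus strand. The other beta-tubulins are at chr8:123411424-123422015 (Tubb3, plus), chr2:25222160-25224702 (Tubb4b, minus), chr17:35833921-35838306 (Tubb5, minus) and chr18:67390717-67402749 (Tubb6, plus), and Stmn1 is at chr4:134468320-134473843 (plus). The annotated gene Gm49450 overlaps Tuba1a and Tuba1b on their own strand, and Gm20388 spans Tubb3, so reads there may be split between annotations. Gm41396, which overlaps Tuba1b, and Fam166a, which overlaps Tubb4b, lie on the opposite strand, and Gm23634 is a miRNA gene inside Stmn1.

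Library totals ran from 17839635 to 49299442 counts in the 34 tumors (median 27358649) and from 31633121 to 42461995 in the 4 cell line libraries. Libraries of a group differed by more than sampling noise in all 44 replicate pairs, so none was counted as a copy. Pancreatic acinar genes summed to 71300, 139000 and 73220 CPM in HGS2 TP1 control 3, TP2 control 2 and TP3 treated 2, against at most 1733 CPM in the other tumors used. These sums were also scaled by the trimmed mean of M values (TMM). By library size alone the high ones were 54990, 91710 and 60820 CPM. Of the epithelial markers, keratin Krt19 had a median of 186 CPM in 60577 tumors and 58.7 CPM in HGS2 tumors. Pax8, a Müllerian lineage factor, was at or near 0 throughout, with medians of 0.431 CPM and 0 CPM. In the HGS2 cell line Epcam reached at most 0.159 CPM, Cldn3 at most 0.0316 CPM, and Cldn4 was at 0 in both libraries. Other markers of the list were high there, with Krt19 at 412 to 941 CPM, Msln at 330 to 615 CPM and Wt1 at 263 to 270 CPM. Cldn4 was also low in the 60577 cell line, at most 0.17 CPM, where Epcam was at 3.14 to 4.71 CPM. In bulk RNA, fewer cells of a type and less RNA per cell cannot be told apart, and this holds for every tumor value that follows.

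In untreated tumors Tuba1b and Tubb5, the main alpha- and beta-tubulin of most tissues, were the highest of the 10 genes per length in both models. In counts per kilobase of exon scaled to library size (RPKM), the level of Tuba1b was 305 ± 26.9 (SD, n = 6) in 60577 and 285 ± 118 (SD, n = 7) in HGS2. The level of Tubb5 was 224 ± 20.6 RPKM in 60577 and 207 ± 66.5 RPKM in HGS2. Their ranges did not overlap in 60577 (275 to 356 RPKM and 196 to 259 RPKM) but did in HGS2. Tuba1a followed at 123 ± 14.7 RPKM in 60577 and 166 ± 71.3 RPKM in HGS2, where it overlapped both.

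Below these, the order in 60577 by union exon length was Stmn1, Tuba1c, Tubb4b, Tubb2a, Tubb6, Tubb2b and Tubb3. The order and the overlaps, in both models, depend on the length used. For Stmn1 the union exon length was 1922 bases and the longest transcript 1060 bases, and scaling by the latter would place it higher. Stmn1 averaged 96.2 RPKM and Tuba1c 86.0 RPKM, and their ranges overlapped each other, that of Stmn1 also overlapping Tuba1a. Tubb4b and Tubb2a, at 52.8 and 44.2 RPKM, also overlapped, as did Tubb6 and Tubb2b at 24.0 and 16.5 RPKM. Tubb3, the isotype typical of neurons and often studied in taxane resistance, was lowest at 3.18 ± 1.22 RPKM (range 1.41 to 5.23 RPKM) and did not overlap Tubb2b. In HGS2 Tubb3 averaged 23.7 ± 15.4 RPKM, next to Stmn1 at 22.3 ± 10.6 RPKM, with Tubb2b lowest at 14.4 RPKM. In HGS2 every gene overlapped its neighbors in the order.

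**Figure D1:**
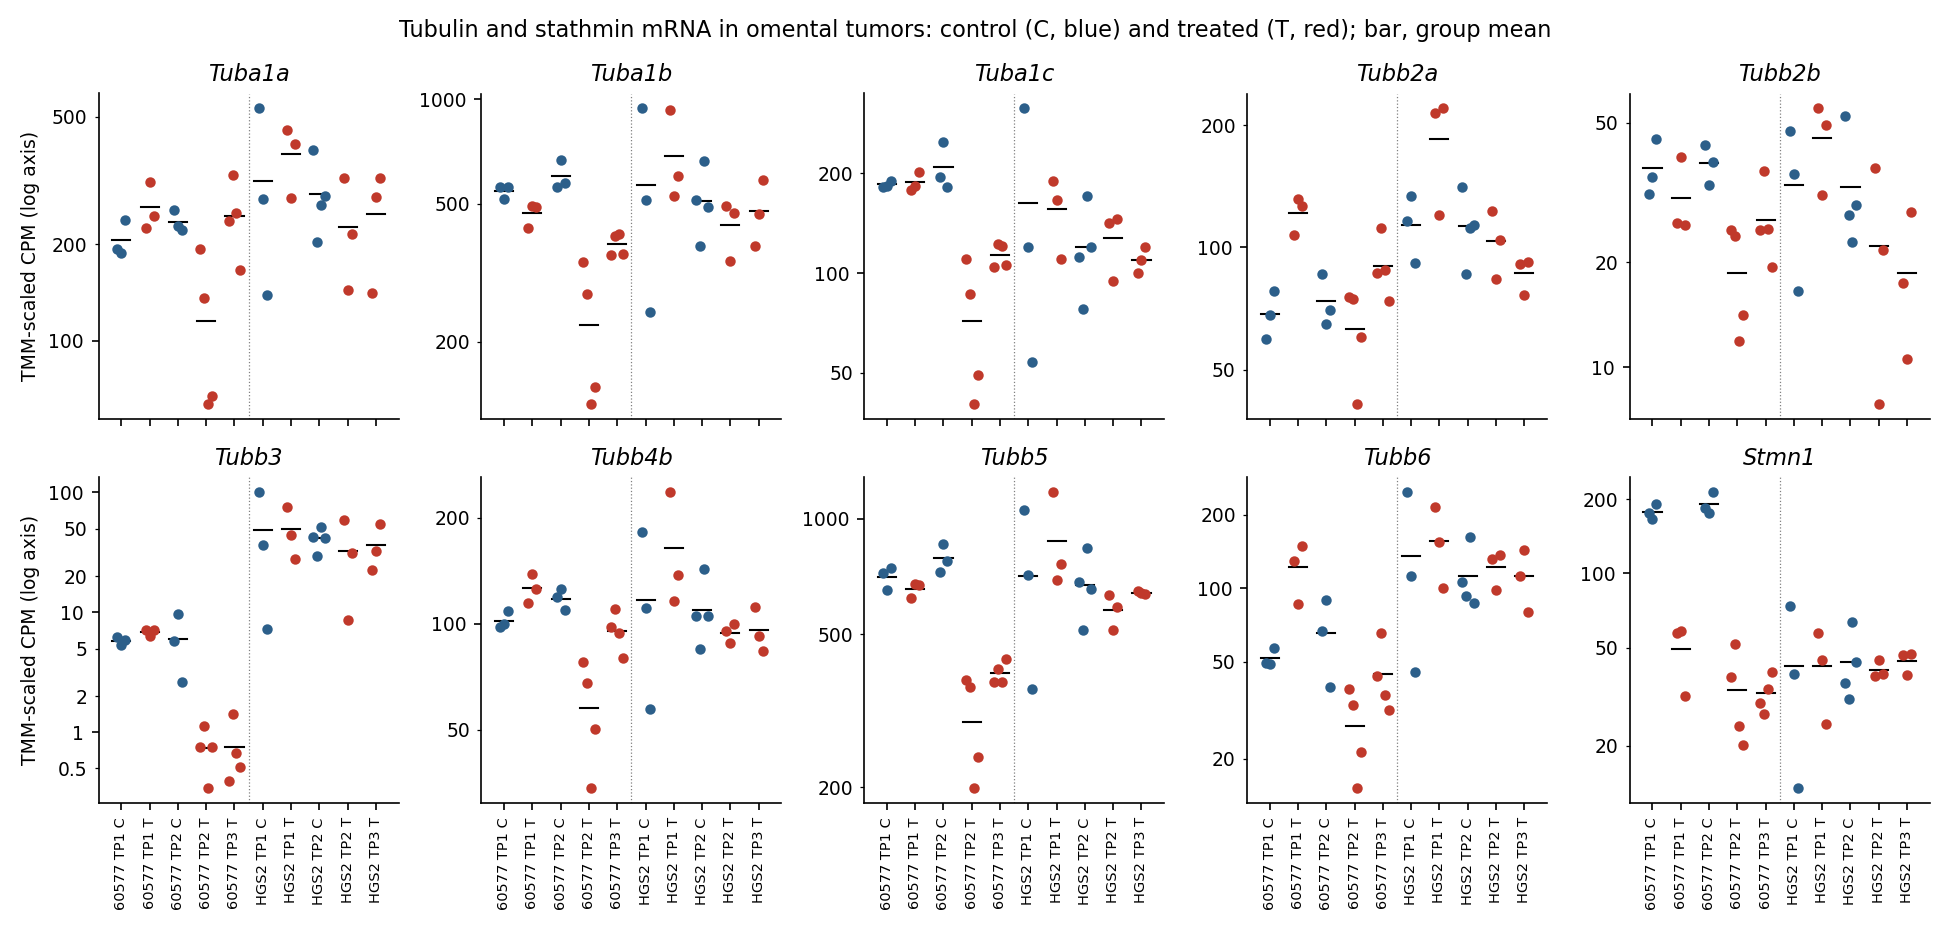
TMM-scaled CPM on log axes for each of the 10 genes in 33 tumors, by model, time point and treatment (C, control; T, treated); each point is a tumor and each bar a group mean. In 60577 the Stmn1 level of every treated tumor is at most 58.5 CPM and that of every control at least 167 CPM, whereas HGS2 control and treated tumors overlap in all panels at TP1 and at TP2.

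The first question was how the genes differed between treated and control 60577 tumors 1 day after the last dose. Stmn1 was lower in the treated tumors, and Tubb2a and Tubb6 were higher. These 3 of 10 genes were called, beside 33.3% of all genes tested in this comparison. The median log2 fold change of the 10 genes was 0.14, against -0.0021 for all genes.

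The Stmn1 level was 176, 167 and 192 CPM in the TP1 controls and 57.3, 58.5 and 31.9 CPM in the treated tumors (CPM here and below are scaled by the trimmed mean of M values, TMM). All treated tumors lay below all controls. The log2 fold change was -1.85 ± 0.30 (standard error; edgeR quasi-likelihood test, Benjamini-Hochberg adjusted p = 0.000333).

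Tubb6, a broadly expressed beta-tubulin of non-neuronal tissues, was at 49.5, 48.97 and 57.0 CPM in the controls and 130, 85.9 and 149 CPM in the treated tumors. Its log2 fold change was 1.24 ± 0.36 (edgeR adjusted p = 0.0166). The call was lost when TP1 control 1, TP1 control 2 or TP1 treated 3 was left out, with adjusted p up to 0.0628.

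Tubb2a, a beta-tubulin that is abundant in brain and present in many other tissues, was at 59.5, 68.1 and 78.2 CPM in the controls and 107, 132 and 126 CPM in the treated tumors. The groups did not overlap, and the log2 fold change was 0.84 ± 0.21 (edgeR adjusted p = 0.00654). The sum of Tubb2a and Tubb2b was not called (log2 fold change 0.54, edgeR adjusted p = 0.0763). The other 7 genes had log2 fold changes between -0.28 and 0.34. Among them Tubb4b (97.9 to 109 CPM in controls and 115 to 138 CPM in treated tumors), Tubb3 (5.36 to 6.25 CPM and 6.30 to 7.14 CPM) and Tuba1b (516 to 560 CPM and 425 to 494 CPM) did not overlap between groups, but their log2 fold changes of 0.31, 0.24 and -0.21 were not called. With so few tumors per group such separation also arises by chance, and the share of all genes without overlap is not given here.

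By TP2, 7 days after the last dose, 9 of the 10 genes were lower in treated than in control 60577 tumors. Over all genes tested 58.4% were called in that comparison, and 29.2% were lower. The median log2 fold change of the 10 genes was -1.35, against 0.03 for all genes. Tubb2a was the exception, at -0.24 ± 0.19 (edgeR adjusted p = 0.3). Every call among the 9 was kept when each of the 17 libraries was left out in turn.

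For the alpha-tubulins, the Tuba1b level was 560, 667 and 574 CPM in the TP2 controls and 341, 275, 132 and 148 CPM in the treated tumors. It fell by 1.43 on the log2 scale (standard error 0.25, edgeR adjusted p = 0.000239). Tuba1c went from 194, 248.5 and 182 CPM to 110, 86.5, 40.2 and 49.26 CPM, a log2 fold change of -1.55. Tuba1a, the alpha-tubulin best known from developing brain, went from 256, 228 and 221 CPM to 193, 136, 63.3 and 67.0 CPM, a log2 fold change of -1.04. For the sum of the 3 alpha-tubulins the log2 fold change was -1.35 ± 0.27 (edgeR adjusted p = 0.000636).

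The Tubb5 level was 727, 861 and 774 CPM in the controls and 379, 364, 199 and 240 CPM in the treated tumors. The groups stood far apart, and the log2 fold change was -1.42 ± 0.18 (edgeR adjusted p = 2.21e-05). Tubb4b, a beta-tubulin also used in cilia, was at 110 to 125 CPM in controls and 34.2 to 78.0 CPM in treated tumors (log2 fold change -1.04). Tubb6 was at 39.3 to 89.9 CPM in controls and 15.2 to 38.8 CPM in treated tumors (-1.28), so that the groups were separated by less than 1 CPM. Tubb2b, close kin of Tubb2a, was at 33.3 to 43.3 CPM and 11.9 to 24.8 CPM (-1.05). The sum of Tubb2a and Tubb2b was not called (-0.47, edgeR adjusted p = 0.0623).

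The largest differences were in Tubb3 and Stmn1. Tubb3 was at 5.77, 9.77 and 2.64 CPM in the controls and 0.753, 1.13, 0.344 and 0.762 CPM in the treated tumors. Behind these lay 64 to 314 counts in the controls and 7 to 31 counts in the treated tumors, and the log2 fold change was -3.01 ± 0.45 (edgeR adjusted p = 8.44e-05). Stmn1 was at 184, 176 and 214 CPM in controls and 38.1, 51.9, 24.0 and 20.1 CPM in treated tumors, a log2 fold change of -2.52 ± 0.28 (edgeR adjusted p = 7.29e-06). In both genes each treated tumor was below each control. Within the treated group, TP2 treated 3 and 4 held the lower values and TP2 treated 1 and 2 the higher ones for 9 of the 10 genes, all but Tubb3.

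At TP3, 21 days after the last dose, 5 of 10 genes were still lower than in the TP2 controls, where 51.4% of all genes tested were called and 26% were lower. With an absolute log2 fold change above 1 required as well, 24.4% of all genes and 2 of the 10 were called. The 5 lower genes, without that limit, were Stmn1 (log2 fold change -2.54 ± 0.28, edgeR adjusted p = 3.85e-06), Tubb3 (-2.996 ± 0.45, 6.51e-05), Tubb5 (-0.98 ± 0.18, 0.000358), Tuba1c (-0.87 ± 0.25, 0.00953) and Tuba1b (-0.64 ± 0.25, 0.0389). The other 5 genes had log2 fold changes between -0.55 and 0.30. Stmn1 was at 29.8, 26.9, 33.9 and 39.9 CPM and Tubb3 at 0.396, 1.43, 0.678 and 0.513 CPM, both below every control. Tubb5 was at 376, 405, 376 and 432 CPM, also below every control. The Tuba1b call was lost when any of the 7 libraries compared was left out (edgeR adjusted p up to 0.122), and the sum of the alpha-tubulins was not called (-0.49, edgeR adjusted p = 0.139).

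Among treated 60577 tumors, the course over time differed between genes. From TP1 to TP2, 8 of 10 genes fell, where 19.3% of all genes tested were called and 9.86% were lower. The largest falls were in Tubb3 (log2 fold change -3.18 ± 0.45, edgeR adjusted p = 0.00215) and Tubb6 (-2.17 ± 0.34, edgeR adjusted p = 0.00247). Tubb2a, which had been higher at TP1, went from 107 to 132 CPM down to 41.1 to 75.3 CPM (-0.96 ± 0.19, edgeR adjusted p = 0.00677). Stmn1 did not pass the test over this step (-0.56 ± 0.27, edgeR adjusted p = 0.142), and it did when TP2 treated 2 was left out. The call of Tuba1a was lost on leaving out any TP1 treated tumor or TP2 treated 3 or 4 (edgeR adjusted p up to 0.0665).

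From TP2 to TP3, 5 genes rose in treated tumors, where 35% of all genes tested were called and 16.2% were higher. With an absolute log2 fold change above 1 required as well, 7.87% of all genes in either direction and 1 of the 10 were called. The 5 genes that rose, without that limit, were Tuba1a (log2 fold change 1.11 ± 0.30, edgeR adjusted p = 0.0141), Tuba1b (0.79 ± 0.23), Tubb4b (0.75 ± 0.19), Tuba1c (0.68 ± 0.24) and Tubb2a (0.54 ± 0.18). The Tuba1a level reached 237, 328, 250 and 166 CPM at TP3. Tubb3 and Stmn1 had log2 fold changes of 0.02 and -0.02 over the same step. The count of 5 depended on single libraries: it was 8 without TP2 treated 1, 2 without TP2 treated 3 or TP2 treated 4, and 3 without TP3 treated 1, 2 or 3. Between TP1 and TP2 controls none of the 10 genes was called, with log2 fold changes from 0.06 to 0.35, and edgeR called 0% of all genes. In that control comparison 1501 genes, none of them among the 10, had an unadjusted p below 0.05, DESeq2 called 107 genes and limma-voom 0.

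**Figure D2:**
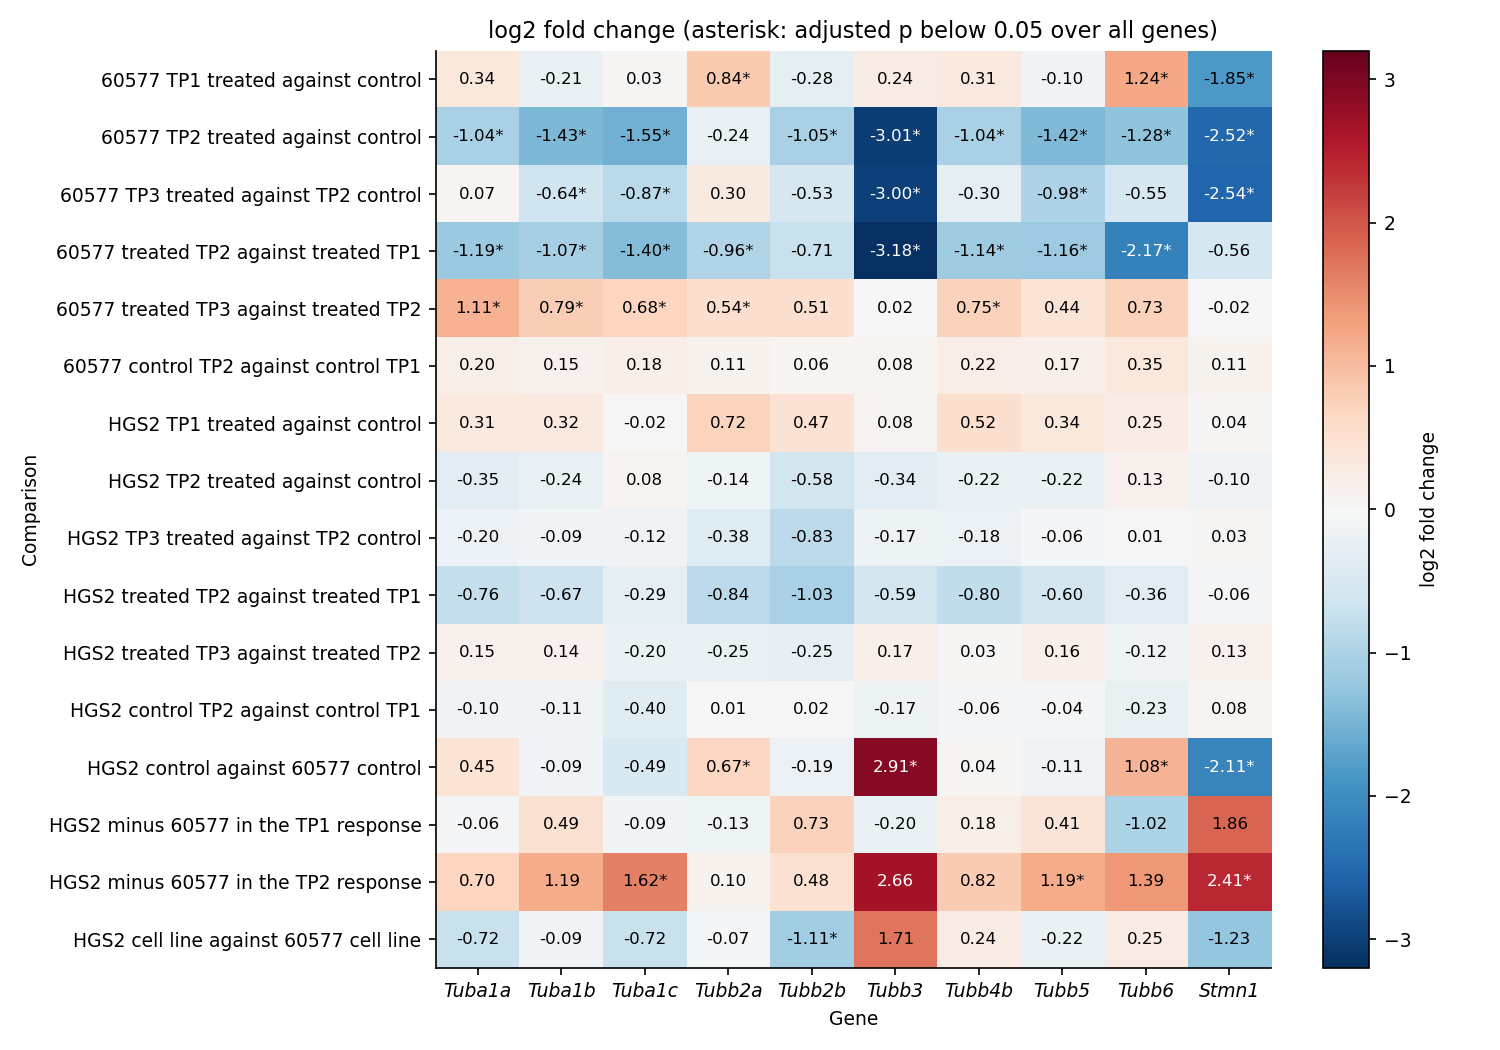
log2 fold changes of the 10 genes (columns) in each comparison (rows), with an asterisk where the adjusted p was below 0.05 over all genes tested. The row for 60577 at TP2 holds 9 asterisks, all negative, and the 6 rows of comparisons within HGS2 hold none.

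The mix of cells and of growth states also differed between treated and control 60577 tumors, and its part in the tubulin values was not tested. All 15 listed genes of dividing cells were lower at TP1, TP2 and TP3. Their summed level was 1276 to 1428 CPM in TP1 controls and 388 to 484 CPM in TP1 treated tumors, and 1273 to 1320 CPM and 250 to 407 CPM at TP2. Mki67, a marker of cycling cells, fell by 1.59 on the log2 scale at TP1 (edgeR adjusted p = 1.59e-05) and by 1.49 at TP2. Of 10 tested epithelial genes 9 were lower at TP1 and TP2 and 10 at TP3. Their sum was 2657 to 3654 CPM in TP2 controls and 762 to 1291 CPM in TP2 treated tumors.

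Other markers moved the opposite way. At TP2, 7 of 8 T cell genes were higher, with a sum of 10.1 to 36.9 CPM in controls and 114 to 214 CPM in treated tumors. Of 8 adipocyte genes 7 were higher, with sums of 175 to 262 CPM and 309 to 1389 CPM. The adipocyte list also summed to 453 to 511 CPM in the 60577 cell line, so it is not specific to adipocytes here. At TP1, when Tubb2a and Tubb6 were higher, 7 of 8 adipocyte genes and 4 of 8 T cell genes were also higher, with adipocyte sums of 209 to 230 CPM in controls and 227 to 1216 CPM in treated tumors. All 6 mesothelial genes were lower at TP1, with a sum of 2326 to 2505 CPM in controls and 721 to 1136 CPM in treated tumors, and 5 of 6 were lower at TP2. The mesothelial list shares Wt1 and Msln with the epithelial list and summed to 3599 to 3949 CPM in the 60577 cell line. It therefore does not separate mesothelium from tumor cells here. Fibroblast genes were higher in 7 of 10 cases at TP1, and their sum was 5805 to 10120 CPM in controls and 17540 to 27510 CPM in treated tumors. TP2 control 1 also held 1532 CPM of pancreatic acinar genes, all 8 of which were lower in treated tumors at TP2. Their sum was 1.68 to 1532 CPM in TP2 controls and 0.963 to 14.5 CPM in TP2 treated tumors, so the groups overlapped. At TP2 the fibroblast sum was 6115 to 9672 CPM and 8019 to 12060 CPM. Nerve markers, which share the neuronal link of Tubb3, had 3 of 9 genes tested, 1 lower and none higher at TP2, and a sum of at most 75.1 CPM in any 60577 tumor.

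Within each model Stmn1 followed Mki67 closely, with r = 0.924 over the 17 tumors of 60577 and r = 0.916 over the 16 of HGS2, but between models the levels differed. The 6 control 60577 tumors held 167 to 214 CPM of Stmn1 beside 240 to 334 CPM of Mki67. The 7 control HGS2 tumors held 13.5 to 73.8 CPM of Stmn1 beside 85.0 to 390 CPM of Mki67. Between these control groups the log2 difference (HGS2 over 60577) was -2.11 ± 0.28 for Stmn1 and -0.20 ± 0.24 for Mki67, the latter with an edgeR adjusted p of 0.497.

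**Figure D3:**
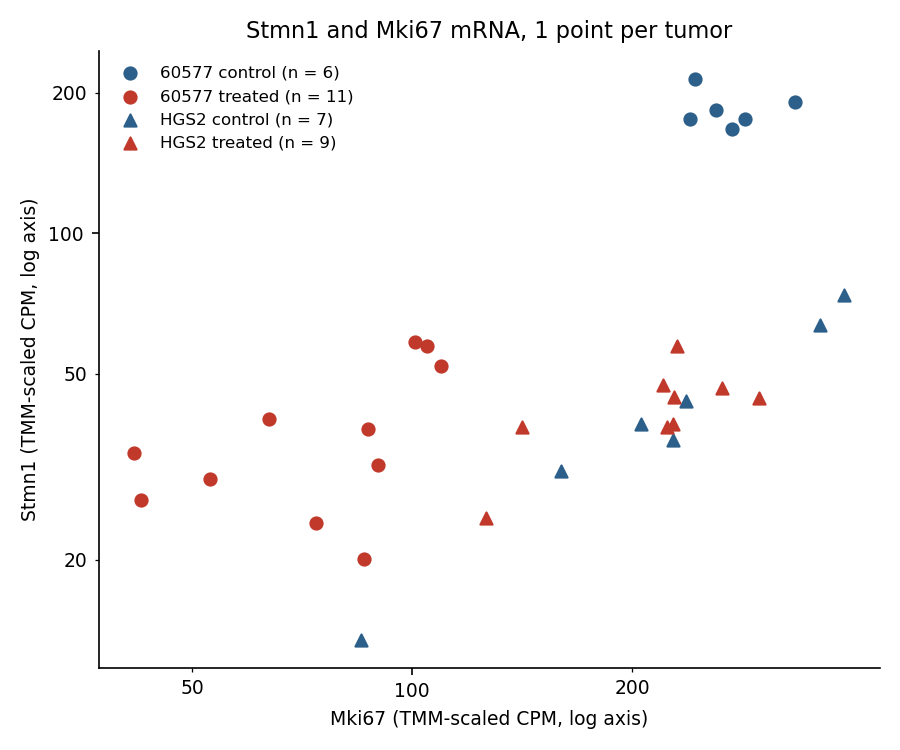
Stmn1 (y axis) against Mki67 (x axis), both in TMM-scaled CPM on log axes, with 1 point per tumor for 33 tumors. The 6 control 60577 tumors sit at 167 CPM of Stmn1 or more, while HGS2 tumors with as much Mki67 stay at or below 73.8 CPM.

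The relative use of beta-tubulin isotypes also differed, shown here as each isotype's share of the summed RPKM of the 6 beta-tubulins, without a test. In 60577 controls Tubb5 made up 60.3% to 64.2% at TP1 and 57.8% to 64.1% at TP2. In treated tumors it made up 48.5% to 49.8% at TP1, 48.5% to 52.8% at TP2 and 42.4% to 55.1% at TP3. The treated ranges lay below the control ranges at TP1 and TP2, and the TP3 range lay below that of the TP2 controls.

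Tubb2a took a larger share in the same tumors. It was 10.9% to 13.1% in TP1 controls and 17.7% to 20.1% in TP1 treated tumors, and 9.70% to 14.2% and 20.8% to 25.1% at TP2. At TP3 it was 19.4% to 24.2%. The Tubb6 share was 6.01% to 6.32% in TP1 controls and 8.66% to 14.7% in TP1 treated tumors, and overlapped at TP2, at 4.44% to 8.88% and 5.50% to 7.08%. Tubb4b kept a share of 13.9% to 16.6% in the TP1 and TP2 groups. The summed beta-tubulin level was 363 to 416 RPKM in TP2 controls and 113 to 225 RPKM in TP2 treated tumors.

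Among the alpha-tubulins, Tuba1b was the main isotype in every group, with mean shares from 52.5% to 59.8% in 60577 tumors. The Tuba1a share was 22.1% to 25.8% in TP1 controls and 28.0% to 33.5% in TP1 treated tumors. At TP2 it was 21.4% to 27.0% and 27.0% to 31.8%, ranges that overlapped slightly. These alpha shares rest on copies with 46.7% (Tuba1c) to 57.9% (Tuba1b) of their 150-base windows also found in another gene.

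**Figure D4:**
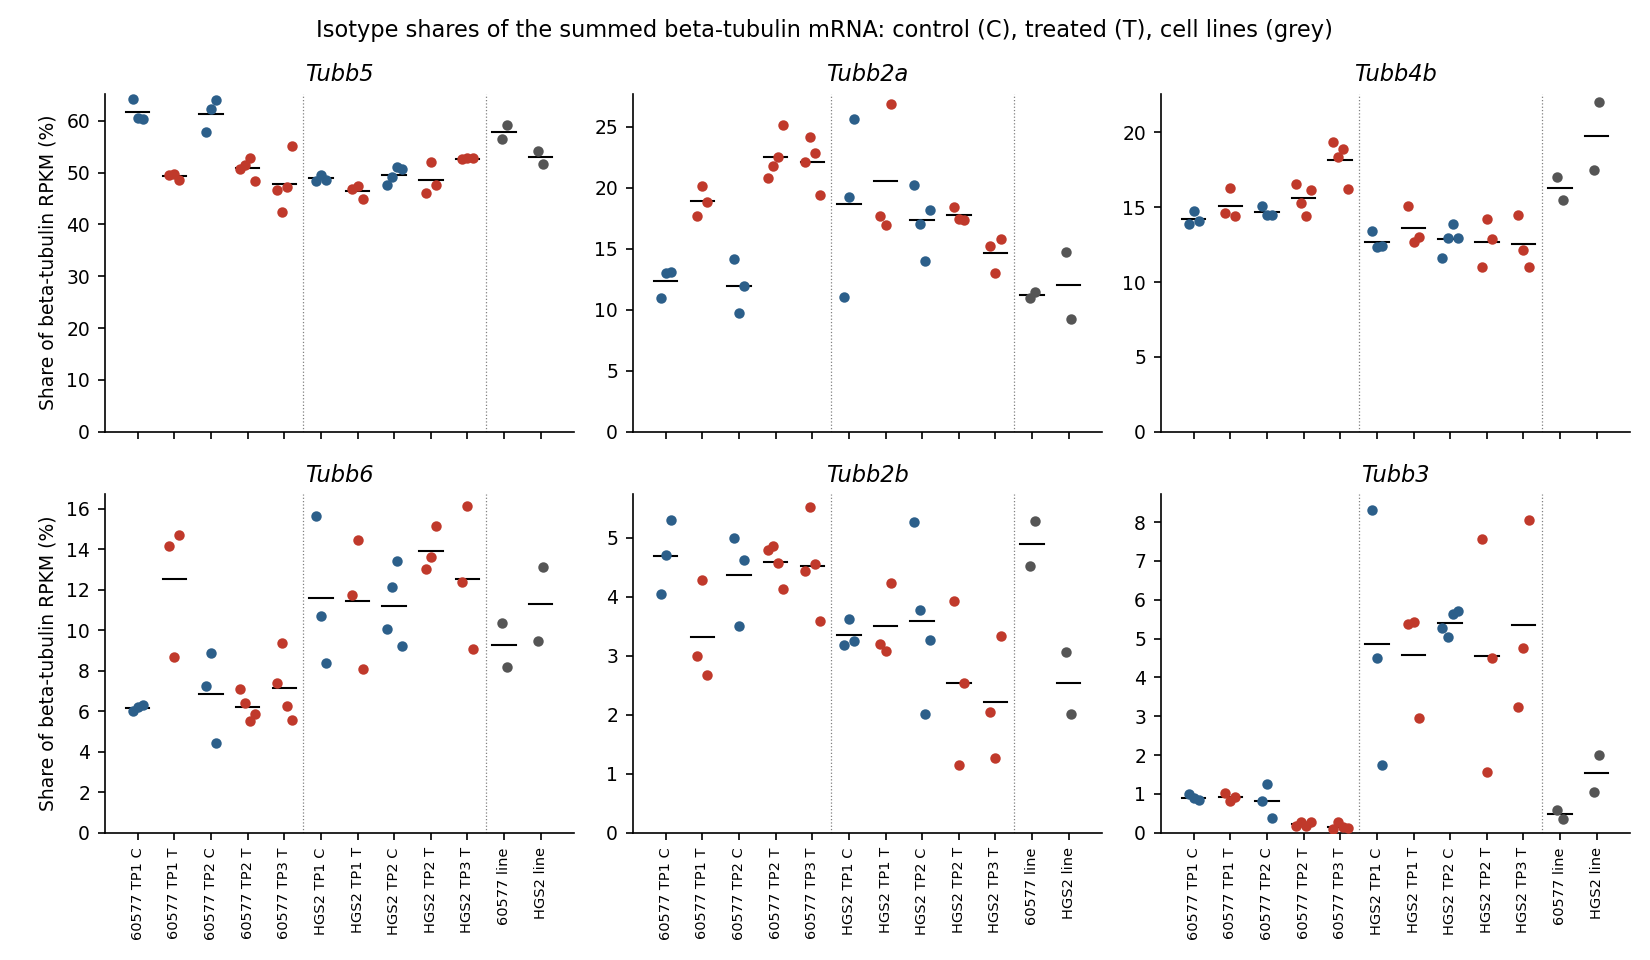
Share of each beta-tubulin in the summed beta-tubulin RPKM (%, linear axes from 0), by group, with 1 point per library and a bar at the group mean. In 60577 the Tubb5 share is lower and the Tubb2a share higher in treated than in control tumors, and Tubb3 reaches at most 1.26% in 60577 but 8.30% in HGS2.

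Genes around tubulin were read from lists of microtubule biology. Of 21 tested genes of tubulin folding, which fold and join the dimers, 1 was higher and none lower in treated 60577 tumors at TP1, while 15 were lower and 1 higher at TP2. The list's median log2 fold change at TP2 was -0.82. Pfdn6 and Pfdn2, subunits of the prefoldin chaperone, each fell by 1.38 on the log2 scale, as did Cct7, a subunit of the ring chaperone that folds tubulin (edgeR adjusted p = 3.02e-05, 7.97e-05 and 1.45e-05). At TP1 the gene called was Tbce, a tubulin cofactor (log2 fold change 0.48).

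All 4 listed genes of tubulin mRNA control passed the test at TP2, 2 in each direction, and 1 did at TP1. At TP1, Cnot1, the scaffold of Ccr4-Not, was lower (log2 fold change -0.47) and the other 3 were not called. At TP2, Scaper (0.63, edgeR adjusted p = 0.000651) and Ttc5 (0.44) were higher, and Cnot11 (-0.57, edgeR adjusted p = 0.000949) and Cnot1 (-0.37) were lower.

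Of 12 tested genes of microtubule catastrophe and severing, 8 were lower and 1 higher at TP1, and 7 and 1 at TP2. Kif18b, a mitotic kinesin that shortens microtubules, fell by 1.55 at TP1 and by 2.28 at TP2 on the log2 scale. Fignl1, a relative of the severing enzymes with a known role in DNA repair, fell by 1.68 and by 2.27. Fign, a severing enzyme, was higher, with log2 fold changes of 1.99 and 2.22. Of 17 tested tail-modifying genes 7 were lower and 1 higher at TP1, and 6 and 4 at TP2. Agbl5 (-0.98), Ttll4 (-0.77) and Ttll7 (-0.65) fell most at TP1. At TP2 Agbl2 was higher (log2 fold change 1.58) and Ttll1 lower (-0.82). Vash2, which removes the last tyrosine of alpha-tubulin, had a log2 fold change of -1.41 at TP2.

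Among 22 tested microtubule-associated genes, 6 were higher and 3 lower at TP1 and 7 and 4 at TP2. Map2, best known from dendrites, fell by 2.18 on the log2 scale at TP1. In the same comparison the log2 fold change was -0.89 for Map1b and 0.99 for Clip2. At TP2 Map7d3 (log2 fold change 2.64), Camsap3 (1.19) and Dclk1 (1.15) were higher. Stmn2, a neuronal relative of Stmn1, was higher where Stmn1 was lower, with log2 fold changes of 3.37 at TP1 and 2.07 at TP2 (edgeR adjusted p = 0.0138 and 0.0454). The 3 other stathmins together summed to at most 10.4 CPM in any 60577 tumor at TP1 or TP2, and to 0.0388 CPM in TP1 treated 3, less than in any TP1 control. Of 6 other tubulins tested, 2 were lower and 1 higher at TP1. Tubg1, the gamma-tubulin that nucleates microtubules, fell by 0.56 at TP1 and by 1.54 at TP2, and Tuba4a was higher at TP1 (log2 fold change 1.41). Tube1 fell by 1.21 and by 0.96 on the log2 scale, and Tubb4a was also lower at TP2.

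The same questions were then asked of HGS2, the other model. None of the 10 genes was called between treated and control tumors at TP1, TP2 or TP3, or between time points. edgeR called 0% of all genes in each of these 6 comparisons, so the count of members there says no more than the count over all genes. At an unadjusted p below 0.05 there were 413 genes at TP1, 1233 at TP2 and 406 at TP3, with 1, 0 and 0 of the 10 among them. DESeq2 called 1, 9 and 5 genes in these and limma-voom 0. Between time points the unadjusted counts were 152 and 1690 in treated tumors and 569 in controls, with 2, 0 and 0 of the 10, while DESeq2 called 1, 144 and 8 genes and limma-voom 0.

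Stmn1 was at 73.8, 39.0 and 13.5 CPM in the HGS2 TP1 controls and 57.5, 44.5 and 24.5 CPM in the treated tumors, a log2 fold change of 0.04 ± 0.44. At TP2 it was at 36.0, 30.9, 63.8 and 43.6 CPM in controls and 38.5, 44.3 and 39.0 CPM in treated tumors (-0.10 ± 0.42). Control and treated tumors overlapped throughout, and the TP1 controls differed among themselves by more than the groups did.

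Tubb5 was at 1050, 711 and 360 CPM in the TP1 controls and 1173, 692 and 760 CPM in the treated tumors (log2 fold change 0.34 ± 0.31). At TP2 it was at 513 to 839 CPM in controls and 514 to 634 CPM in treated tumors (-0.22 ± 0.29). Tubb3 was at 101, 36.3 and 7.26 CPM in TP1 controls and 75.6, 44.5 and 28.0 CPM in treated tumors (0.08 ± 0.74). TP1 control 3, which held the lowest value of each of these genes at that time point, was also a library with high pancreatic acinar genes.

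Tubb2a was the member with an unadjusted p below 0.05 at TP1, at 116, 134 and 91.6 CPM in HGS2 controls and 215, 120 and 220 CPM in treated tumors. Its log2 fold change was 0.72 ± 0.24 (edgeR adjusted p = 0.999), beside 0.84 ± 0.21 in 60577. The difference between the models in that response was -0.13 ± 0.33 (edgeR adjusted p = 0.873). All 10 genes overlapped between treated and control HGS2 tumors at TP1, at TP2 and at TP3 against TP2 controls. The share of all genes that overlapped is not given here, so this count does not set the 10 apart from other genes. Without the libraries high in pancreatic acinar genes edgeR again called 0 of all genes in the comparisons within HGS2, the 10 among them.

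Before any treatment effect, control tumors of the models differed in 4 of the 10 genes, beside 51.5% of all genes tested (28.1% higher in HGS2 and 23.4% lower). Tubb3 was higher in HGS2, at 7.26 to 101 CPM over 7 controls with a median of 41.4 CPM. In the 6 controls of 60577 it was at 2.64 to 9.77 CPM, and the log2 difference was 2.91 ± 0.47 (edgeR adjusted p = 1.61e-05). Tubb6 (1.08 ± 0.30, edgeR adjusted p = 0.00427) and Tubb2a (0.67 ± 0.16, edgeR adjusted p = 0.00103) were also higher in HGS2. Stmn1 was lower, as given above (edgeR adjusted p = 9.61e-07). Tuba1b, Tubb4b and Tubb5 had log2 differences of -0.09, 0.04 and -0.11.

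In the same comparison all 10 fibroblast genes and 7 of 8 macrophage genes were higher in HGS2. The fibroblast sum was 28060 to 136900 CPM in HGS2 controls and 5805 to 10120 CPM in 60577 controls. Epithelial genes were lower in 6 of 10 cases, and 1 of 15 genes of dividing cells was higher and 4 lower. Their part in the tubulin differences was not tested, and strain, line and host cannot be told apart. The Tubb3, Tubb6, Tubb2a and Stmn1 calls held without each of the 33 libraries, and Tuba1c (-0.49) was called in addition without HGS2 TP1 control 1. Without the libraries high in pancreatic acinar genes Tuba1a was called too (0.65, edgeR adjusted p = 0.0404).

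Whether the treatment response itself differed between the models was tested as the difference of their log2 fold changes. At TP1 edgeR called none of the 10, beside 1.77% of all genes tested, and 1 had an unadjusted p below 0.05. The Stmn1 difference was 1.86 ± 0.57 (edgeR adjusted p = 0.0784), and it was called without HGS2 TP1 control 1 or HGS2 TP1 treated 3 and by DESeq2 (adjusted p = 0.0252). At TP2 3 genes were called, beside 10.3% of all genes tested in either direction and 6% with a higher value in HGS2. They were Stmn1 (2.41 ± 0.52, edgeR adjusted p = 0.00832), Tubb5 (1.19 ± 0.35, edgeR adjusted p = 0.0321) and Tuba1c (1.62 ± 0.52, edgeR adjusted p = 0.0456). The TP2 response of Stmn1 was -2.52 in 60577 and -0.10 in HGS2, and that of Tubb5 was -1.42 and -0.22.

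With the replicate number as a block in the joint fit, the Stmn1 difference at TP2 was 2.38 (edgeR adjusted p = 0.0177). Tubb5 (edgeR adjusted p = 0.0528) and Tuba1c (edgeR adjusted p = 0.077) were then no longer called. That block treated a number as the same in both models and at all time points. It was therefore not a pairing of tumors within a model at TP2. The Stmn1 call held without each of the 33 libraries. The Tubb5 call was lost without HGS2 TP2 control 2 or 4, HGS2 TP2 treated 1 or 3, 60577 TP2 control 2, or 60577 TP2 treated 3 or 4 (edgeR adjusted p up to 0.0931). The Tuba1c call was lost without any of 19 of the 33 libraries. Tubb3, with the largest difference (2.66 ± 0.88), had an edgeR adjusted p of 0.0527, and it was called without the libraries high in pancreatic acinar genes (edgeR adjusted p = 0.0309) or without any of 9 single libraries. The same 15 genes of dividing cells were all higher in this difference, with a median of 2.12.

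In the cultured lines macrophage and T cell genes summed to at most 4.70 and 1.81 CPM, while fibroblast genes summed to 1070 to 2500 CPM in 60577 cells and 15130 to 32740 CPM in HGS2 cells. Their tables were deposited apart from the tumors and were not tested against them. Per length, Tuba1b and Tubb5 again led, at 428 and 355 RPKM in 60577 cells (n = 2) and 403 and 304 RPKM in HGS2 cells (n = 2). Tubb3 was lowest in both lines, at 3.80 and 2.04 RPKM in 60577 cells and 4.48 and 14.7 RPKM in HGS2 cells, where it overlapped Tubb2b. In control tumors of HGS2 it ranged from 3.89 to 54.1 RPKM, and in those of 60577 from 1.41 to 5.23 RPKM.

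Between the lines 1 of the 10 genes was called, beside 18.9% of all genes tested in either direction and 9.82% lower in HGS2. Tubb2b was at 65.9 and 71.4 CPM in 60577 cells and 30.2 and 33.5 CPM in HGS2 cells (log2 difference, HGS2 over 60577, -1.11 ± 0.17, edgeR adjusted p = 0.0164). The sum of Tubb2a and Tubb2b was not called (-0.39, edgeR adjusted p = 0.19). Stmn1 was at 248 and 289 CPM in 60577 cells and 67.0 and 161 CPM in HGS2 cells (-1.23 ± 0.43, edgeR adjusted p = 0.107). It did not overlap between lines, and DESeq2 called it (adjusted p = 0.0235). Tubb3 was at 7.11 and 3.82 CPM in 60577 cells and 8.36 and 27.4 CPM in HGS2 cells (1.71 ± 0.63, edgeR adjusted p = 0.118).

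The HGS2 libraries differed widely from each other: HGS2 cell line 2 was higher than HGS2 cell line 1 in all 10 genes, with Tuba1b at 1011 and 501 CPM. The genes of dividing cells summed to 1032 and 2927 CPM in these libraries. None of the 10 was called without 60577 cell line 1 or without 60577 cell line 2, and 4 were called without either HGS2 library, Stmn1 and Tubb2b in both cases. Each of these fits left 1 library in a line, so the spread came from the other line's 2 libraries and the lone library was assumed to vary likewise. Whether the cultures were independent is not stated, so the p-values measure the spread between these 4 libraries, which may be technical.

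Last, the protein-coding genes most like each member were found by the smaller of its Pearson correlations of log2 CPM over the 17 tumors of 60577 and the 16 of HGS2. These correlations are descriptions over tumors that share libraries and treatment groups. The genes most like Stmn1 were Nusap1 (r = 0.983 in 60577 and 0.961 in HGS2), a spindle protein, Fen1 (0.968 and 0.961), a replication enzyme, and Ccna2 (0.972 and 0.955), a cyclin. For Tubb5 and Tuba1b the splicing factor Sf3b4 and the cell death regulator Bak1 were among the closest, with r from 0.835 to 0.924, followed by Nucks1 and Ywhaq in turn. Tuba1c had Bak1, Psmd14 and Pcna, the last a replication clamp (0.887 and 0.903). Tubb3 stood nearest to Il1rap, Clic1 and Loxl2 (0.834 to 0.939), and Tubb2a to Lrp1, Lipa and Serping1, with lower values of 0.65 to 0.767. Tuba1a was closest to Gid8, Dynlrb1 and Spg21, Tubb2b to Akirin2, Bmpr2 and Ppp1r7, Tubb4b to Ptpa, Psmb2 and Anp32e, and Tubb6 to Txn1, Arpc5 and Psmc4, with r from 0.755 to 0.93. Between members, Tuba1b and Tubb5 had r of 0.947 and 0.961, while Stmn1 and Tubb2a had r of -0.127 and 0.062.

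The 250 bases upstream of the start were held for 7 members in RefSeq promoter windows (GRCm38.p6). The motif CCAAT, searched on both strands (ATTGG), occurred in 5 of them, Tubb4b (5 matches), Tubb5 (2), Tuba1a, Tuba1c and Tubb3 (1 each), and in 33.8% of 32851 promoters. TTTGGCGC, an E2F-type motif, occurred in none of the 7 and in 0.417% of all promoters.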

How the data were processed

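Tumor and cell line RNA was sequenced as strand-specific paired reads after rRNA depletion. Per the labels the authors trimmed reads with Trim Galore 0.6.5, aligned them with STAR 2.7.0f to GRCm38 (mm10) and estimated expected counts per gene with RSEM. The deposited expected counts were rounded to whole numbers here (3.59% of tumor and 3.4% of cell line values were not whole). The filter kept a gene when 25% of libraries or more reached 1 CPM, and the kept genes were tested with edgeR 4.0.16 (TMM, quasi-likelihood, R 4.3.3) in 1 fit per model, 1 joint fit for comparisons between models, and 1 for the cell lines, and called at a Benjamini-Hochberg adjusted p below 0.05 over all genes. HGS2 TP3 treated 1, absent from the study's own tables, was left out. Standard errors are the log2 fold change over the root of F. RPKM used union exon lengths of GENCODE M21. The fits were also run on simulated data, with an outcome that is not given here and is not used as support.

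Named genes were all 10 members in every comparison, from each microtubule list up to 3 called genes with the largest change at TP1 and TP2, Mki67, and 3 genes of most similar pattern. The members and lists were chosen with earlier results of these data known. Replicate numbers came from the labels, which do not say that a number marks a shared batch. As a block, a number was treated as the same across all groups of a fit, and across both models in the joint fit. Numbers were taken to pair tumors where 3 or more pairs all had deviations with r over 0.1. This held for treated against control at TP2 (r 0.114 to 0.144 in 60577 and 0.138 to 0.296 in HGS2) and for no other tumor comparison (60577 TP3 against TP2 controls had r 0.061 to 0.176, and HGS2 treated TP3 against TP2 shared 2 numbers), so the block is given beside results at TP2 where it changed a call. Alternatives were DESeq2 1.42.0, limma 3.58.1 (voom), other scaling and filters, a length and GC offset, summed copies and single libraries left out.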

Additional observations from a re-analysis of the deposited data

Results flagged for a closer look

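In 3 of the 10 genes, beside 10.3% of all genes tested, the TP2 response differed between the models by a test of the difference itself (the log2 fold change in HGS2 less that in 60577, edgeR quasi-likelihood test, joint fit of 33 tumors): 2.41 for Stmn1 (adjusted p = 0.00832), 1.19 for Tubb5 (adjusted p = 0.0321) and 1.62 for Tuba1c (adjusted p = 0.0456). With the replicate block, shared across models and time points, Stmn1 was called (edgeR adjusted p = 0.0177). Tubb5 (edgeR adjusted p = 0.0528) and Tuba1c (edgeR adjusted p = 0.077) were not. For each of them every treated 60577 tumor was below every control at TP2, and in HGS2 the groups overlapped. That was so for 9 of the 10 genes, so it does not set these 3 apart. The share of all genes with that pattern is not given here. In 30 sets of 4 tumors, 10 genes in 3 groups of 4, no tumor stood apart from its group by Dixon's criterion, which flags about 5% of groups by chance.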

How the results depend on the processing

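Of the 10 genes in 16 comparisons, 2925 values with 1 library left out kept their call and direction, 56 lost a call and 29 gained one. Under the other alternatives 1690 kept theirs, 39 lost and 20 gained a call, and 1 turned: the Tubb2b difference between control tumors became 0.43 when its counts were summed with Tubb2a. Both totals include the 7 comparisons in which edgeR called no gene at all. Some libraries left out were outside the groups compared, so the totals do not measure how stable the calls were. The median over all genes moved by less than 0.1 (log2) with DESeq2 size factors or a length and GC offset. The number of called genes for 60577 TP3 against TP2 controls (5, beside 8340 of all genes) was 2 with an absolute log2 fold change above 1 required (3966), and 3 with a length and GC offset and replicate block (8023), with summed copies (8337), or with both models in 1 fit (6439). For treated TP3 against TP2 (5, beside 5677 of all genes) it was 1 with the fold limit (1278) and 1 with both models in 1 fit (2995). For the difference in TP1 response (0, beside 288) it was 1 by DESeq2 (998). For the difference in TP2 response (3, beside 1678) it was 5 by DESeq2 (2703), and 1 with no filter on low counts (937), with a replicate block (916) and with that block and the offset (1019). For the cell lines (1, beside 2601) it was 3 with no filter (4995) and by DESeq2 (3781), 2 with a replicate block alone (2295) or with the offset (2343), and 0 with summed copies (2601). Crossing the replicate numbers of the lines, whose deviations had r = -0.15, gave 2 (2609 of all genes); this was chosen after seeing the data. The block changed no other count of the 10 genes by over 1.5 times, but over all genes it took treated TP2 against TP1 from 3133 to 1526. At TP3, where the numbers were not taken to pair the tumors by the rule above, Tuba1b had an edgeR adjusted p of 0.102 with the block. The cause of these changes was not tested. With 1 library left out the counts ranged from 2 to 3 (60577 TP1), 9 to 9 (TP2), 4 to 5 (TP3), 7 to 10 (treated TP2 against TP1), 2 to 8 (treated TP3 against TP2), 4 to 5 (HGS2 against 60577 controls), 0 to 1 (difference at TP1), 1 to 5 (difference at TP2) and 0 to 4 (cell lines), and stayed at 0 in the other 7. At TP2 the difference gave 5 without HGS2 TP1 control 1 or 3, and 1 without HGS2 TP2 control 2 or 4, HGS2 TP2 treated 1 or 3, 60577 TP2 control 2, or 60577 TP2 treated 3 or 4. Shares of Tubb2a were 6.83% (controls) and 13.8% (treated) at 60577 TP2 from counts without length scaling, and 9.72% and 18.7% with the longest transcript, so the level of a share depends on the length used. Tubb3 in 60577 rests on as few as 7 counts in a library.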

Other observations

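HGS2 TP3 treated 1, a tumor left out of the comparisons, held 448 CPM of Tubb5, 285 CPM of Tuba1b, 203 CPM of Tuba1a, 101 CPM of Tubb4b, 94.3 CPM of Tubb2a, 73.0 CPM of Tubb6, 65.8 CPM of Tuba1c, 31.7 CPM of Stmn1, 21.8 CPM of Tubb3 and 10.3 CPM of Tubb2b. Its values for Tuba1b, Tuba1c, Tubb3, Tubb5, Tubb6, Tubb2b and Stmn1 were below those of the other 3 HGS2 TP3 tumors, and the other genes lay within their range or above it. With this tumor included, edgeR called 0 of all genes in the comparisons within HGS2, so none of the 10.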
